A study of Mus musculus with 12 samples.

Results

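RGS proteins, the regulators of G-protein signalling, are a gene family, and 9 of its members were followed here: Rgs2, Rgs3, Rgs4, Rgs10, Rgs12, Rgs14, Rgs16, Rgs17 and Rgs19. They were taken by gene symbol from 56691 genes listed, of which 21 carry a name made of Rgs and a number. The set was chosen by measured values, namely the log2 change of Rgs16 between KO and control in 4T1, where it was among the larger falls, so the 4T1 values of members are a description and carry no p. Their 4T1 calls in the fit over all genes are only counted beside the background, and EMT6 is where members were tested. The study sequenced messenger RNA from 2 mouse mammary carcinoma lines, 4T1 and EMT6, grown in DMEM with fetal bovine serum. In each line, 3 control libraries were compared with 3 KO libraries from cells carrying a guide against Nedd4, a HECT-type ubiquitin ligase. The controls are titled Control, and their library names read WT. All 12 libraries carry the same batch label. The labels do not state where the guide cuts, whether KO cells were 1 clone or a pool, or whether the 3 libraries per group had cultures of their own. The p-values therefore measure only the spread between these libraries, which may be technical.

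A G protein is switched on when a receptor in the membrane makes its alpha subunit exchange GDP for GTP, and it is switched off when the alpha subunit hydrolyses that GTP. RGS proteins bind the GTP-loaded alpha subunit through their RGS domain and speed up the hydrolysis, so they shorten signals from receptors for chemokines, lysophospholipids, hormones and transmitters. The small R4 proteins Rgs2, Rgs4 and Rgs16, with the larger Rgs3, act on Gi and Gq subunits, Rgs2 with a preference for Gq. The R12 proteins Rgs10, Rgs12 and Rgs14 act on Gi subunits, and Rgs12 and Rgs14 also carry a GoLoco motif that binds GDP-loaded Gi. Rgs17 and Rgs19 belong to the RZ group, whose members act on Gi and Gz.

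The promoters of Rgs16, Rgs2 and Rgs10 are shown because the results below turn on these 3 genes. Each sequence is the 250 bases before the RefSeq start on GRCm38.p6, printed 5′ to 3′ along the gene: Rgs16 at chr1:153740103-153740352 on the plus strand, Rgs2 at chr1:144004150-144004399 on the minus strand and Rgs10 at chr7:128418173-128418422 on the minus strand. Capitals mark matches to the motifs named after them.
Rgs16: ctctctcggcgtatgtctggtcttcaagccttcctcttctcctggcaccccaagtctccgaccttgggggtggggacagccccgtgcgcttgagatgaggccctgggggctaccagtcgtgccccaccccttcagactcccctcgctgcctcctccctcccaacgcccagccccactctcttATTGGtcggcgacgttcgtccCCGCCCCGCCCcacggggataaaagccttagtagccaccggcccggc
Rgs2: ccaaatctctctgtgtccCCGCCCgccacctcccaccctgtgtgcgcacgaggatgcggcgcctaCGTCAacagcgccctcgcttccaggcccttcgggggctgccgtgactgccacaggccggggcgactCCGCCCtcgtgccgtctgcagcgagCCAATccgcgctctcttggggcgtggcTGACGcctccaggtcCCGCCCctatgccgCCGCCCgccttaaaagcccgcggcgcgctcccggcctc
Rgs10: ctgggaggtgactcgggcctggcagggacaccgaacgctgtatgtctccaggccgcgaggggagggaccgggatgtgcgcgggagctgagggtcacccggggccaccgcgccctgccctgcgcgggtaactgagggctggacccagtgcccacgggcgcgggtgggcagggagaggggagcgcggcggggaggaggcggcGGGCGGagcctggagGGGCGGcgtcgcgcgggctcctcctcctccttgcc

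In these windows 8 motifs were searched on both strands. They were the CRE TGACGTCA, the CRE core site TGACG that lies inside it, the AP-1 site TGANTCA, the E-box CACGTG, the TATA box TATAAA, the CCAAT box CCAAT, the GC box GGGCGG and the TEAD site GGAATG. The Rgs2 window held CRE core sites with their first base at -185 and -67, where -1 is the base before the start. It also held a CCAAT box at -94 and GC boxes at -232, -119, -52 and -38. The Rgs16 window held a CCAAT box at -68 and a pair of GC boxes at -47 and -42 that share 1 base. The Rgs10 window held GC boxes at -50 and -35 and no match to the other motifs. Of 32817 windows of this length in the RefSeq table, 17.7% held the CRE core site, 33.8% the CCAAT box, 32.7% the GC box, 1.5% the CRE, 6.8% the AP-1 site, 6.0% the E-box, 12.4% the TATA box and 12.6% the TEAD site. GC content was 66.4% in the Rgs16 window, 72.4% in Rgs2 and 76.4% in Rgs10, against a median of 52.4% over all windows. A match is a run of letters and not a measured binding site. Windows were found for 8 of the 9 members.

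Library totals ran from 13705612 to 19761604 counts, so that 3 counts, the limit that a count of 0 allows, equal 0.152 to 0.219 CPM (counts scaled to library total). Nedd4 itself was at 94.4, 97.6 and 93.5 FPKM (counted fragments scaled to exonic length and library total) in 4T1 control and at 24.7, 24.9 and 25.3 in KO. In EMT6 it was at 122, 121 and 116.5 FPKM in control and at 12.1, 11.5 and 12.1 in KO. The transcript was thus lower in every KO library, with 26.3% of the control level left in 4T1 and 9.89% in EMT6. 4T1 expressed the epithelial genes Epcam, Krt8, Krt18 and Cdh1. EMT6 expressed Krt8 and Krt18 with the mesenchymal genes Vim, Col1a1 and Col1a2, while Cdh1 was near 0 and Cldn4, Esrp1 and Krt5 were at 0. The lymphocyte markers Cd3e, Cd3d and Ms4a1 were at 0 in all libraries.

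Some other properties of the libraries differed between genotypes. In EMT6 the ranges of gene number, Malat1 and the epithelial sum overlapped between KO and control. In 4T1, 20937 to 21264 genes had a count in the KO libraries and 18836 to 19017 in control. The nuclear RNA Malat1 was at 479 to 560 CPM in 4T1 KO and 69.3 to 155 CPM in control. In EMT6, 18119 to 18371 genes had a count in KO and 18014 to 18833 in control, and Malat1 was at 158 to 200 CPM in KO and 189 to 450 CPM in control. The 11 epithelial markers summed to 1478 to 1560 FPKM in 4T1 KO and 2018 to 2102 in control, with 6 of the 10 tested lower and Krt5 at 0. The 9 mesenchymal markers summed to 1670 to 1831 FPKM in EMT6 KO and 944.5 to 1040 in control, with 6 of 7 tested higher and 1 lower. In 4T1 these markers summed to 561 to 592.7 FPKM in KO and 485.8 to 529.3 in control, with 1 of 3 tested higher and 2 not called. In EMT6, 4 of 6 tested epithelial markers were lower and 1 higher, with a median log2 change of -1.41, while their summed FPKM was 379 to 393 in KO and 351 to 418 in control. Of the 6 pericyte markers both that were tested in EMT6, Mcam and Notch3, were lower. There the list summed to 0.180 to 0.270 FPKM in KO and 0.950 to 1.03 in control, with Kcnj8 at 0. In 4T1 the pericyte list summed to 16.3 to 19.4 FPKM in KO and 11.98 to 13.6 in control, with the 1 tested gene higher. The part of these differences in the results below was not tested.

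The level of a gene was read as FPKM, which divides by exonic length and so allows genes to be compared within a library. Rgs16 was the most abundant member in 4T1 control at 112 ± 2.81 FPKM (mean ± SD, n = 3, as for all such values). Rgs19 followed at 14.98, then Rgs12 at 5.56, Rgs3 at 3.003, Rgs10 at 2.78, Rgs2 at 0.940 and Rgs14 at 0.310 FPKM. The ranges of Rgs3 and Rgs10 overlapped, and the other neighbours in this order did not overlap down to Rgs14. EMT6 control had another order, led by Rgs19 at 26.7 FPKM, then Rgs2 at 17.8, Rgs10 at 5.01, Rgs12 at 2.80, Rgs3 at 1.38, Rgs16 at 0.187 and Rgs14 at 0.140 FPKM, the last 2 with overlapping ranges. The tables of the 2 lines were normalized separately, so these levels stand side by side without a test. Rgs17 had no count in any of the 12 libraries, which allows up to 0.0546 to 0.0669 CPM over the 3 libraries of a group. Rgs4 had at most 7 counts in a library.

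**Figure D1:**
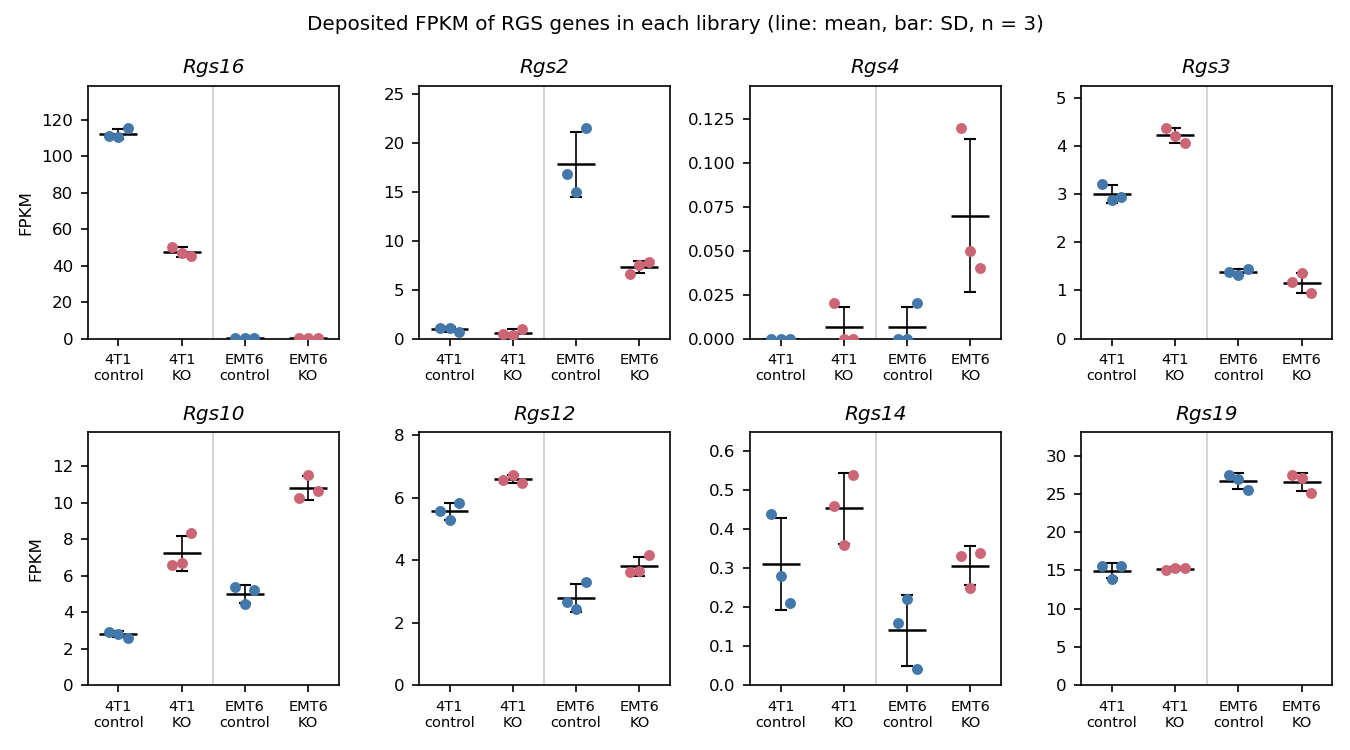
FPKM of 8 RGS members (all but Rgs17, which had no count) in each of the 12 libraries, by line and genotype; points are libraries, lines the mean and bars the SD. Rgs16 stands at 110.4 to 116 FPKM in 4T1 control and 45.1 to 50.2 in KO, and is near 0 in all EMT6 libraries.

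Of the 9 members, 7 passed the filter on low counts in 4T1 and 6 in EMT6. In 4T1, 3 were called higher in KO at an adjusted p under 0.05 (Rgs3, Rgs10 and Rgs12) and 1 lower (Rgs16), while 28.0% of all 13313 tested genes were called higher and 29.0% lower. Of all called 4T1 genes 49.1% were higher, and 61.2% under scaling by total counts alone. The groups did not overlap for 4 of the 7, against 61.9% of all tested genes. Members called higher in 4T1 numbered 2 without KO replicate 2, without control replicate 2, with no low-count filter and in 1 fit of all 12 libraries. Since this contrast was used in choosing the set, nothing is read from those counts. In EMT6, 3 members were called higher (Rgs10, Rgs12 and Rgs14) and 1 lower (Rgs2), against 27.9% and 28.2% of all 12890 tested genes. The groups did not overlap for 4 of the 6, against 62.6% of all tested genes. With 6 genes tested these counts are small, and nothing particular to the members as a set is read from them. The median log2 change of the tested members was 0.17 in 4T1 and 0.22 in EMT6, beside 0.0003 and 0.0005 over all tested genes. The median absolute change over all tested genes, without regard to sign, was 0.27 and 0.30.

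**Figure D2:**
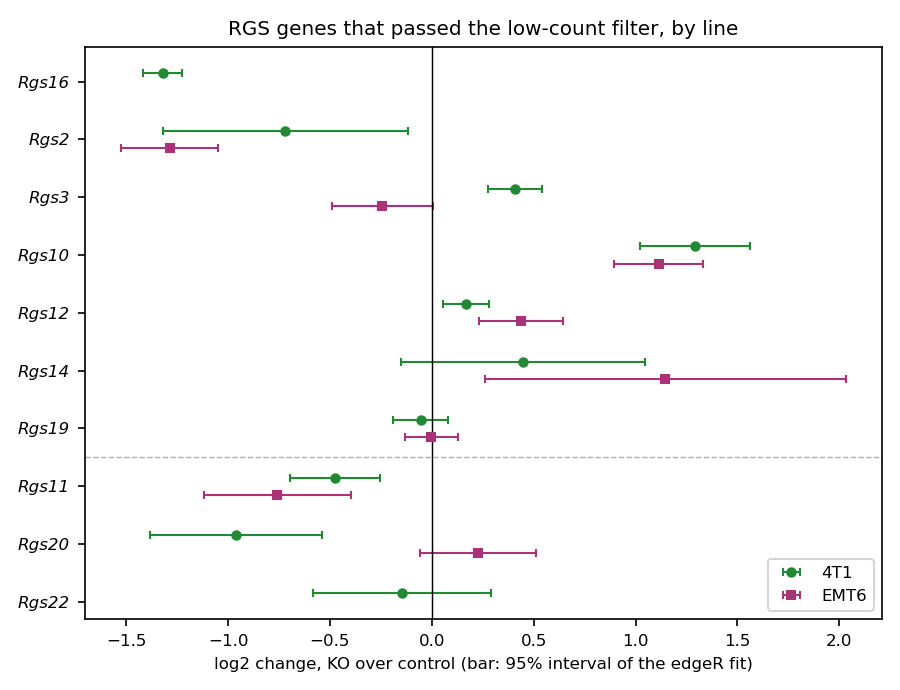
Log2 change of each tested RGS gene, KO over control, in 4T1 and EMT6. Bars give the 95% interval, by a normal approximation, from the standard error of the edgeR fit. Genes under the dashed line are not members. Rgs10 lies above 0 in both lines, Rgs16 at -1.32 in 4T1 and Rgs2 at -1.29 in EMT6.

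Among the R4 members, Rgs16 (ENSMUSG00000026475, chromosome 1, 153616095 to 153621214, plus strand, positions of members as the deposited tables print them) is an inducible protein that acts on Gi and Gq. Its level in 4T1 was 111, 110.4 and 116 FPKM in control and 50.2, 47.1 and 45.1 in KO. All KO libraries lay below all control libraries, and KO kept 42.3% of the control level. The log2 change was -1.32 ± 0.05 (SE), with a 95% interval of -1.42 to -1.22. By size of fall, Rgs16 was at rank 138 of the 13313 tested genes and at rank 70 of the 11267 with a mean of at least 1 FPKM. It was at rank 3 of the 959 with a mean of at least 50 FPKM. The set was chosen by this fall, so its interval and ranks are a description and not a test. In a bulk library, fewer cells that express a gene and less of its RNA per cell cannot be told apart.

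In EMT6, Rgs16 had 7, 8 and 7 counts in control and 1, 2 and 4 in KO, too few to pass the filter. All KO libraries were again below all control libraries. The summed counts, 7 against 22, give a ratio, scaled to library totals, of 0.300 with an exact 95% interval of 0.108 to 0.727 that covers counting error only. A fit that kept genes of low count gave a log2 change of -1.64 ± 0.80 and an edgeR adjusted p of 0.114, so the EMT6 value did not pass the test. A gene model on the opposite strand, Gm28513, shares 1917 bases with Rgs16 and had 0 to 20 counts. Whether counting used strand is not stated, so reads there cannot be assigned with certainty.

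Rgs2 (ENSMUSG00000026360, chromosome 1, 143875076 to 143879899, minus strand), a regulator of Gq that cells induce on receptor stimulation, was the member that fell in EMT6. Its level was 16.84, 15 and 21.48 FPKM in control and 6.62, 7.48 and 7.78 in KO. The highest KO library was well below the lowest control library, and KO kept 41.0% of the control level. The log2 change was -1.29 ± 0.12, with an interval of -1.53 to -1.05 and an edgeR adjusted p of 5.11e-06. In 4T1 the gene was low, at 1.04, 1.12 and 0.660 FPKM in control and 0.460, 0.370 and 0.990 in KO. These groups overlapped through KO replicate 3, and the log2 change of -0.72 ± 0.31 became -1.27 without that library.

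Rgs3 (ENSMUSG00000059810, chromosome 4, 62478084 to 62622238, plus strand) has long and short forms that these gene-level counts do not separate. In 4T1 it stood at 3.21, 2.87 and 2.93 FPKM in control and 4.37, 4.21 and 4.07 in KO, with no overlap and a log2 change of 0.41 ± 0.07. In EMT6 it stood at 1.38, 1.32 and 1.44 FPKM in control and 1.18, 1.36 and 0.940 in KO, with overlap. The EMT6 log2 change of -0.24 ± 0.13 had an interval of -0.49 to 0.00 and did not pass the edgeR test (adjusted p = 0.112).

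Rgs4 (ENSMUSG00000038530, chromosome 1, 169569046 to 169575211, minus strand), best known as a regulator in neurons and heart, was near the detection limit. It had 1 count in all of 4T1. In EMT6 it had 0, 0 and 1 counts in control and 7, 3 and 2 in KO. The ratio of the sums, 12 against 1 and scaled to library totals, was 11.3 with an exact interval of 1.68 to 484. The fit that kept genes of low count gave an edgeR adjusted p of 0.0686, so no change was shown at this depth.

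Among the R12 members, Rgs10 (ENSMUSG00000030844, chromosome 7, 127975345 to 128020482, minus strand) is a small protein that acts on Gi and is known best from microglia and macrophages. In 4T1 it was at 2.93, 2.81 and 2.60 FPKM in control and 6.60, 6.70 and 8.33 in KO, a log2 change of 1.29 ± 0.14. In EMT6 it was at 5.35, 4.44 and 5.23 FPKM in control and 10.2, 11.5 and 10.6 in KO. All KO libraries lay above all control libraries in both lines. The EMT6 log2 change was 1.11 ± 0.11, a rise of 2.16-fold with an edgeR adjusted p of 3.64e-07. Of the 13 leukocyte markers, 2 were tested in EMT6 and both were lower. The list summed to 15.3 to 17.0 FPKM in EMT6 KO against 28.8 to 34.2 in control. In 4T1 that list summed to 26.3 to 29.2 FPKM in KO and 24.1 to 26.5 in control. Of 3 tested there, 1 was higher, 1 lower and 1 not called. Any link between these markers and the Rgs10 values was not tested.

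Rgs12 (ENSMUSG00000029101, chromosome 5, 35106789 to 35196988, plus strand) is a large scaffold that also binds Ras. Its 4T1 levels were 5.56, 5.30 and 5.83 FPKM in control and 6.58, 6.74 and 6.48 in KO, with a log2 change of 0.17 ± 0.06. Its EMT6 levels were 2.65, 2.44 and 3.30 FPKM in control and 3.61, 3.64 and 4.16 in KO. The groups did not overlap in either line, and the EMT6 rise was small, at 0.44 ± 0.10 on the log2 scale with an edgeR adjusted p of 0.00208.

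Rgs14 (ENSMUSG00000052087, chromosome 13, 55517545 to 55532500, plus strand), which joins Gi and Ras signalling and is known from the hippocampus, was low in both lines. In 4T1 it had 30, 18 and 12 counts in control and 33, 25 and 40 in KO, with overlapping groups and a log2 change of 0.45 ± 0.31. In EMT6 it had 10, 17 and 3 counts in control and 27, 21 and 23 in KO. The EMT6 log2 change was 1.15 ± 0.45 with an edgeR adjusted p of 0.0407. That call ended when any library other than control replicate 2 was left out, with adjusted p from 0.0613 to 0.199 and a log2 change of 0.65 without control replicate 3. DESeq2 gave 0.0634 and a fit with a replicate block 0.0642.

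Of the RZ members, Rgs19 (ENSMUSG00000002458, chromosome 2, 181330212 to 181335770, minus strand), also called GAIP for its binding of Gi alpha subunits, showed little difference. It was at 15.5, 13.9 and 15.6 FPKM in 4T1 control and 15.05, 15.33 and 15.33 in KO. In EMT6 it was at 27.6, 26.9 and 25.6 FPKM in control and 27.4, 27.1 and 25.2 in KO. The groups overlapped in both lines. The EMT6 log2 change was -0.003 ± 0.07 with an interval of -0.13 to 0.13 and an edgeR adjusted p of 0.977, and the 4T1 interval was -0.19 to 0.08. Rgs17 (ENSMUSG00000019775, chromosome 10, 5775663 to 5872400, minus strand) had no count, as given above.

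The share that each gene takes of all RGS transcript was read from the FPKM summed over the 21 Rgs genes. In 4T1 the sum was 146 ± 3.93 in control and 86.7 ± 1.69 in KO. Rgs16 made up 76.8% ± 0.635 of it in control and 54.7% ± 1.91 in KO. Without Rgs16 the sum was 34.0 ± 1.52 in control and 39.2 ± 0.900 in KO, so the lower total was carried by that gene. In EMT6 the sum was 59.9 ± 3.37 in control and 54.4 ± 1.03 in KO, with Rgs19 the largest share at 44.7% ± 3.61 and 48.9% ± 2.57. Rgs2 went from 29.6% ± 4.18 to 13.4% ± 0.953 of the EMT6 sum, and Rgs10 from 8.35% ± 0.421 to 19.84% ± 0.849. These sums weigh transcripts and not protein or activity.

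**Figure D3:**
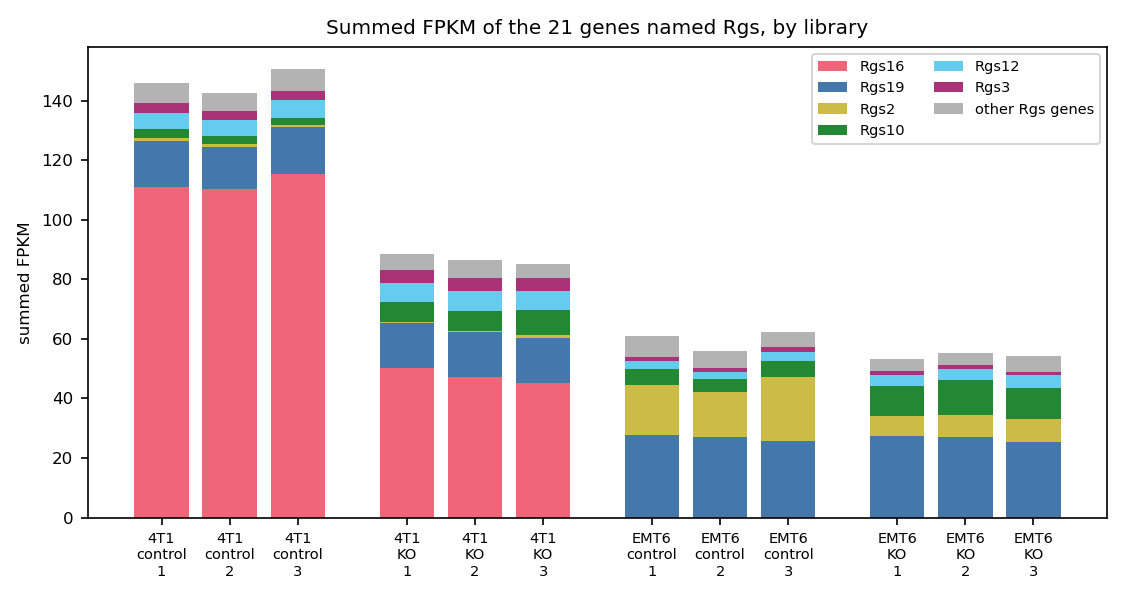
Summed FPKM of the 21 Rgs genes in each library, divided by gene. Rgs16 fills most of the bar in 4T1, where the sum is 143 to 151 FPKM in control and 85.2 to 88.5 in KO; Rgs19, Rgs2 and Rgs10 fill most of it in EMT6.

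Other Rgs genes were also expressed. Rgs11, an R7 protein that works as a complex with the beta subunit Gnb5, was at 4.44 ± 0.788 FPKM in EMT6 control and 2.63 ± 0.736 in KO, with an edgeR adjusted p of 0.00518. In 4T1 it was called lower too, from 4.80 ± 0.671 to 3.64 ± 0.540 FPKM. Its partner Gnb5 fell in EMT6 by 1.23 ± 0.19 on the log2 scale (edgeR adjusted p = 4.56e-05) and rose in 4T1 by 0.48 ± 0.09. Rgs20, an RZ protein, had log2 changes of -0.96 ± 0.22 in 4T1, a call, and 0.22 ± 0.15 in EMT6, not a call (edgeR adjusted p = 0.201). Rgs6, Rgs7, Rgs13 and Rgs21 had no count in any library.

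The genes next to a member give its local context, read from nearby tested genes. Dhx9, 252689 bases before Rgs16, was called lower in 4T1, from 55.5 ± 3.19 to 34.6 ± 3.18 FPKM. Around Rgs10 the differences were smaller than its own. Tial1, 21019 bases away, changed by 0.17 ± 0.05 in 4T1 and 0.09 ± 0.05 in EMT6, where it was not called (edgeR adjusted p = 0.186). Next to Rgs2 in EMT6, Uchl5 at -0.12 ± 0.06 was not called (edgeR adjusted p = 0.0969), while Pla2g4a, 5825470 bases on the other side, fell by 0.47 ± 0.10 (edgeR adjusted p = 0.0023). Over the 12 libraries, Copb2 (Pearson r = 0.989) and Dbt (r = 0.988) were most like Rgs2 among 12005 other genes. The points of these correlations share the difference between the lines. Rgs16 was not tested in EMT6 and was not compared in this way.

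The rest of the pathway was read from 6 lists holding the G-protein subunits, receptors, effectors, other regulators and cAMP targets. Over all of them, 36 of 101 tested genes were called higher and 33 lower in 4T1, and 32 of 102 higher and 35 lower in EMT6. Of all tested genes, 28.0% were called higher and 29.0% lower in 4T1, and 27.9% and 28.2% in EMT6. These shares are the background for the counts of each list below. The median log2 change was 0.06 in 4T1 and 0.01 in EMT6, beside 0.00 over all tested genes in both.

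The receptors on which RGS proteins bear had 11 of 17 tested genes lower and 3 higher in 4T1, and 10 of 21 lower and 7 higher in EMT6. The median log2 change was -0.37 in 4T1 and -0.58 in EMT6. The summed FPKM of the list was lower in 4T1 KO, at 134.6 to 139 against 174.5 to 187 in control. In EMT6 the sum was higher in KO, at 124.6 to 130 against 113 to 119.5 in control. F2rl1, the protease-activated receptor that couples to Gq, went from 27.8 ± 0.910 to 16.2 ± 0.244 FPKM in 4T1. In EMT6 it fell from 1.91 ± 0.257 to 0.153 ± 0.0208 FPKM (edgeR adjusted p = 2.09e-08). Lpar4, a lysophosphatidic acid receptor, fell in EMT6 from 15.9 ± 2.52 to 4.51 ± 0.338 FPKM (edgeR adjusted p = 4.74e-09). The adhesion receptor Adgre5 fell by 1.19 ± 0.17 on the log2 scale in 4T1 and by 1.21 ± 0.14 in EMT6. In 4T1 the chemokine receptor Cxcr3 went from 1.53 ± 0.132 to 0.553 ± 0.133 FPKM.

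Of the subunits that RGS proteins act on or that bind with them, 7 of 22 tested were called higher and 2 lower in 4T1, and 9 of 19 higher and 3 lower in EMT6, with median log2 changes of 0.07 and 0.31. Gna15, a Gq-type alpha subunit of blood cells and epithelia, fell in EMT6 from 2.72 ± 0.562 to 0.257 ± 0.0153 FPKM (edgeR adjusted p = 2.94e-08). Gna12, an alpha subunit of the G12 family, rose in EMT6 from 14.5 ± 0.678 to 25.5 ± 0.627 FPKM (edgeR adjusted p = 2.32e-08). In 4T1 the beta subunit Gnb4 rose by 1.25 ± 0.10 and the gamma subunit Gng11 fell by 0.84 ± 0.11 on the log2 scale.

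Among other genes with an RGS domain, 3 of 11 tested were called higher and 4 lower in 4T1. In EMT6, 3 of 11 tested were called higher and 3 lower. The medians were 0.06 and 0.09. With counts scaled by totals only, the 4T1 split became 6 higher and 3 lower. Arhgef1, a guanine nucleotide exchange factor activated by alpha subunits of the G12 family, went from 26.0 ± 0.694 to 20.98 ± 0.359 FPKM in 4T1. The sorting nexin Snx25 rose by 0.72 ± 0.09 and Snx14 fell by 0.43 ± 0.07 on the log2 scale in EMT6 (edgeR adjusted p = 4.38e-06 and 0.00014).

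Of the cycle regulators, receptor kinases and arrestins, 5 of 15 tested were called higher and 5 lower in each line, with median log2 changes of 0.13 and 0.12. Gpsm3, a GoLoco protein that binds GDP-loaded Gi, fell by 0.88 ± 0.17 in 4T1 and by 0.88 ± 0.08 in EMT6 (edgeR adjusted p = 1.5e-07). Arrb1, an arrestin that uncouples receptors, rose in EMT6 from 2.92 ± 0.465 to 7.79 ± 1.96 FPKM (edgeR adjusted p = 0.00354). In 4T1 Gpsm2 rose from 29.1 ± 2.22 to 46.0 ± 2.77 FPKM.

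Of the effectors, 12 of 23 tested were called higher and 6 lower in 4T1, with a median of 0.11, and 5 of 24 higher and 11 lower in EMT6, with a median of -0.16. Whether the lines differ was not tested. In EMT6 the adenylyl cyclase Adcy6 fell by 0.69 ± 0.07 and the phospholipase Plcb3 by 0.67 ± 0.06 on the log2 scale (edgeR adjusted p = 1.98e-07 and 4.46e-08). In 4T1 Prkar2b, a regulatory subunit of protein kinase A, rose from 32.3 ± 1.72 to 50.8 ± 1.32 FPKM.

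Of the cAMP and CREB target genes, 7 of 15 tested were called higher and 6 lower in 4T1, with a median of 0.22, and 3 of 14 higher and 5 lower in EMT6, with a median of -0.17. Areg, the growth factor amphiregulin, went from 72.6 ± 2.85 to 32.1 ± 1.54 FPKM in 4T1. In EMT6 it fell from 139.9 ± 13.5 to 53.8 ± 7.75 FPKM (edgeR adjusted p = 9.78e-07). Fosb in 4T1 rose from 2.40 ± 0.0557 to 4.50 ± 0.0850 FPKM, and Bdnf in EMT6 from 4.23 ± 0.197 to 7.47 ± 0.104 (edgeR adjusted p = 8.83e-08).

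**Figure D4:**
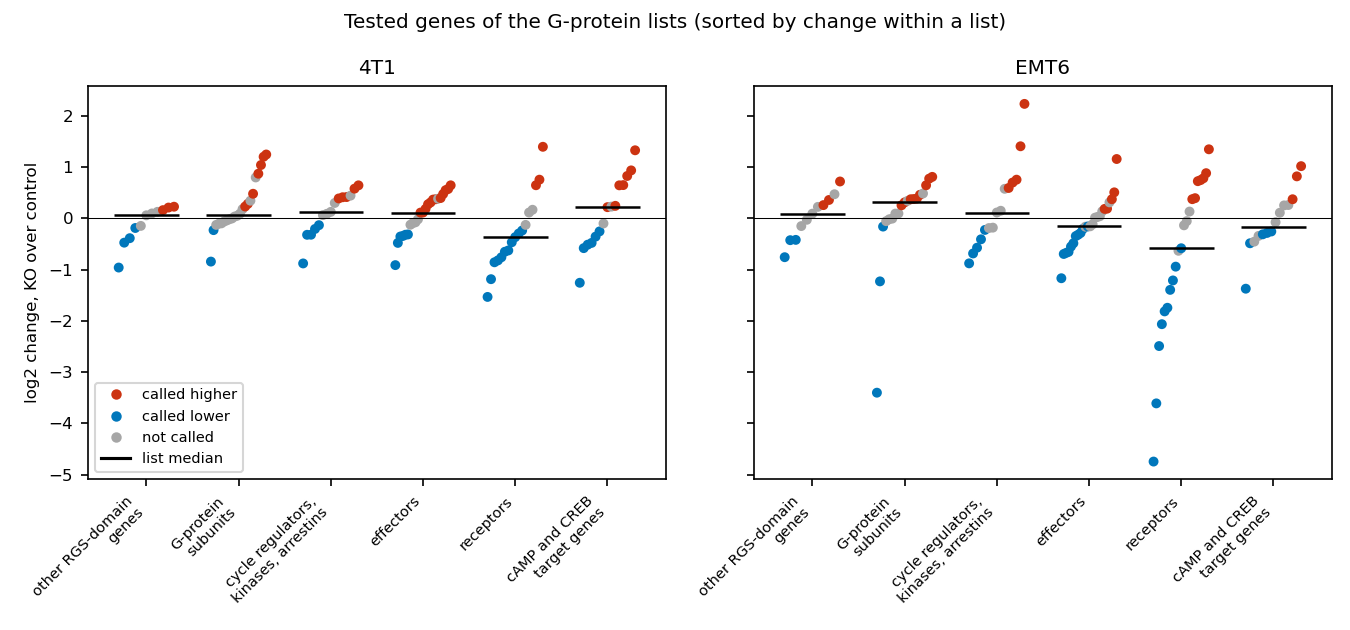
Log2 change, KO over control, of the tested G-protein pathway genes by list in 4T1 and EMT6; each point is a gene, coloured by its call, and black lines are list medians. The receptor points have medians of -0.37 in 4T1 and -0.58 in EMT6, and the subunits 0.07 and 0.31.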

How the data were processed

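Messenger RNA of 12 libraries, 3 in each of 4 groups, was captured on beads and sequenced, per the labels' protocols. The submitters' processing notes name cutadapt 1.9.1, HISAT2 2.2.1, HTSeq 0.6.1, DESeq2 and GRCm38, without giving each a role. The deposited tables hold raw read counts per gene, FPKM and exonic size, per the file headers, with the 2 lines in separate tables. The authors' FPKM equalled the count scaled to exonic length and library total within 0.005 for all 340146 values of each table. The members' positions differ from GENCODE M21 on GRCm38 for all 9, so they are given without a build.

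Counts were tested within each line with edgeR 4.0.16 (R 4.3.3): filterByExpr, TMM, robust quasi-likelihood fit, Benjamini-Hochberg adjustment over all tested genes, calls at an adjusted p under 0.05. No rows without a gene entered. The procedure was tested on simulated data. Intervals of log2 changes span 95% by a normal approximation, and SE is the log2 change over the root of F. The p-values come from an F test, so these intervals can be narrower than the test implies. Libraries of 1 group differed beyond sampling noise, with a chi-square per gene of at least 2.36.

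Members and gene lists were chosen with earlier results of these data known. Named were all members, Nedd4 and other Rgs genes with a count. Per pathway list and line, at most 3 called genes of largest change were taken, with a mean of at least 1 FPKM and groups that do not overlap. Some of these are not printed, including some with a larger change than the printed genes of their list and line. A few withheld items are not reported here. Promoters were read from a RefSeq table. Alternatives were other scalings, limma-voom 3.58.1, DESeq2 1.42.0, other low-count filters, 1 fit of all libraries, a replicate block and leaving out each library.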

Additional observations from a re-analysis of the deposited data

How the results depend on the processing

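Rgs16 and Rgs10 in 4T1 kept their direction, and Rgs10 and Rgs2 in EMT6 their direction and call, in all alternatives run. Scaling by total counts gave -1.24 for Rgs16. Leaving out each library gave -1.37 to -1.28 for Rgs16 in 4T1, 1.18 to 1.34 and 1.04 to 1.15 for Rgs10 in 4T1 and EMT6, and -1.39 to -1.13 for Rgs2 in EMT6 (log2). The number of members called lower in 4T1 was 2 with limma-voom and 2 with no low-count filter, and 1 to 2 when each library was left out, being 2 without KO replicate 3 or control replicate 3. In EMT6 that number was 1 to 2 when each library was left out, being 2 without KO replicate 2, where Rgs3 was called at -0.38. Members called higher numbered 2 to 3 in each line. In 4T1 there were 2 with no low-count filter, in 1 fit of all 12 libraries, and without KO replicate 2 or control replicate 2. Rgs14 in EMT6 fell under a filter at 1 FPKM and was then not tested. The near-0 change of Rgs19 in EMT6 reversed sign to 0.0337 with no low-count filter, and ran from -0.0397 to 0.0394 when each library was left out. The cause was not tested. With scaling by total counts alone, 61.2% of called 4T1 genes were higher against 49.1%, the median of all genes moved to 0.08, and Rgs19 in 4T1 went from -0.05 to 0.02.

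Replicate numbers did not pair the libraries. Deviations of same-numbered control and KO libraries correlated at -0.02 to 0.01 in 4T1 and -0.13 to -0.01 in EMT6. No library correlated best with the library of its own number. A replicate block gave 7676 called genes in 4T1 against 7589 and 6830 in EMT6 against 7224, and left 2 members called higher in EMT6. At these depths Rgs4, Rgs17 and, in EMT6, Rgs16 were too low to test.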
